A study of Mus musculus with 8 samples.

Results

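The CC chemokine genes and the receptor gene described here are Ccl2, Ccl3, Ccl4, Ccl6, Ccl7, Ccl8, Ccl9, Ccl11, Ccl20 and Ccr2, 9 ligands and 1 receptor that draw monocytes, eosinophils and lymphocytes into inflamed colon. They were taken by name from the deposited expression table, as 10 of its 18262 genes. Colon RNA was sequenced from wild-type (WT) mice given dextran sulfate sodium (DSS), which damages the colonic lining and sets off colitis. The DSS group has 4 libraries, and the DSS + GAA group has 4 libraries of DSS mice treated with ganoderic acid A (GAA), a Ganoderma triterpenoid; replicates are numbered 1, 2, 4 and 5 in each. GAA was given at 20 mg/kg by the titles and protocol, but single libraries are labelled 20, 21, 22 and 23 mg/kg, and all were kept as 1 group. Both groups had DSS, and no tissue without colitis was analysed here, so the values give no healthy level. The age, sex and strain of the mice and the DSS dose are not given in the sources used here. Nothing in the labels ties each library to its own animal, so the p-values reflect spread among these libraries, which may be technical.

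Chemokines are small secreted proteins that guide cells bearing matching G protein-coupled receptors. In the CC family the first conserved cysteines lie side by side. CCL2 and CCL7 release Ly6C-high monocytes from bone marrow and draw them to tissue through CCR2. CCL3 acts on CCR1, which neutrophils, monocytes and macrophages carry. CCL11 (eotaxin) draws eosinophils through CCR3, and epithelial CCL20 draws CCR6-bearing Th17 cells, B cells and dendritic cells. In inflamed colon, incoming CCR2-positive monocytes are known to become much of the macrophage pool.

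Values are TPM (a library's transcripts scaled to a fixed total), corrected for transcript length, so TPM levels can be set side by side between genes. Sequencing depth is unknown, since TPM does not retain it. Errors of TPM are SD over n = 4 libraries, and errors of log2 fold changes, taken on log2(TPM + 1) as DSS + GAA minus DSS, are standard errors of the limma fit. Adjusted p-values are limma's, Benjamini-Hochberg over all 14217 tested genes, with 0.05 as the threshold. Over all tested genes the log2 fold changes had a median of -0.25, which trimmed mean scaling, quantile normalization and median centring moved to -0.00396, 0.02 and 0.05. Epithelial markers, which check the tissue label, summed to 10765 to 13616 TPM in the DSS libraries and 16806 to 18054 TPM in the DSS + GAA libraries, and 3 of 9 rose and 0 fell (6 rose under median centring, 5 under trimmed mean scaling and 1 under quantile normalization).

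All 10 genes passed the filter on low values. Ccl2, Ccl3, Ccl4, Ccl9 and Ccl11 were lower in DSS + GAA colon, between 2.95-fold and 5.67-fold as ratios of mean TPM. Ccl6 was 1.60-fold higher, and Ccl7, Ccl8, Ccl20 and Ccr2 did not pass the test. Against the 5 of 10 genes called lower and the 1 called higher stand 28.2% and 5.96% of all tested genes. The groups did not overlap for 4 of the 10 genes with DSS + GAA lower and for 1 with DSS + GAA higher. Over all tested genes 27.6% and 5.31% had groups that did not overlap in these directions. The median log2 fold change of the 10 genes was -1.36, beside -0.25 over all tested genes. The count of 5 lower and 1 higher genes was the same under trimmed mean scaling, quantile normalization and median centring. Without DSS replicate 1, 3 genes were lower and 0 higher. The authors' deposited table, at a false discovery rate under 0.05, calls 6 of the 10 genes lower (16.2% of its rows) and 2 higher (10.3%), adding Ccl7 and Ccr2 to the 6 genes called here. In bulk tissue, fewer cells that make a transcript and less of it per cell cannot be told apart.

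**Figure D1:**
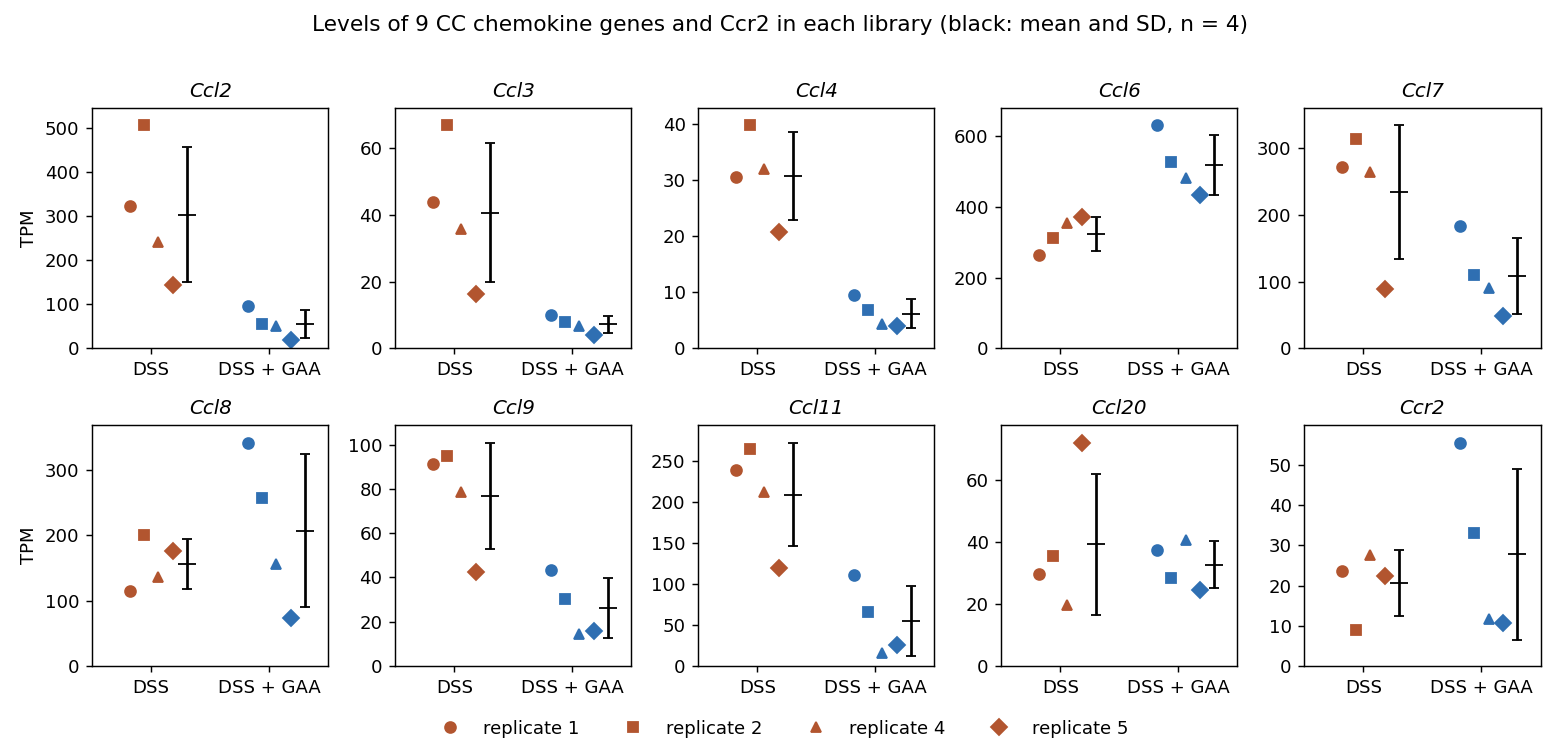
TPM (vertical axes, linear from 0) of each gene in the 4 DSS and 4 DSS + GAA libraries, with marker shape for the replicate number and the mean and SD in black. The groups do not overlap for Ccl2, Ccl3, Ccl4, Ccl11 and Ccl6, and DSS + GAA replicate 1 lies highest of its group for 9 of the 10 genes.

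Ccl2, the main monocyte attractant gene of the family, stood at 322.6, 506.6, 242.4 and 144.3 TPM in DSS replicates 1, 2, 4 and 5. In DSS + GAA replicates 1, 2, 4 and 5 it stood at 97.3, 55.3, 50.03 and 19.6 TPM. The lowest DSS library therefore lay above the highest DSS + GAA library. The mean fell from 304 ± 153 to 55.6 ± 32.0 TPM, a log2 fold change of -2.49 ± 0.49 (limma adjusted p = 0.00825), or -2.24 relative to the median of all genes.

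Ccl7, which shares the receptor CCR2 with Ccl2, stood at 271, 314, 263 and 88.4 TPM in DSS replicates 1, 2, 4 and 5 and at 184, 110, 89.7 and 48.2 TPM in the DSS + GAA libraries. DSS replicate 5 lay below 3 of the DSS + GAA libraries, so the groups overlapped. The log2 fold change was -1.12 ± 0.47 and missed the threshold (limma adjusted p = 0.0949, 95% interval -2.18 to -0.05). Without DSS replicate 5 it was -1.53 (limma adjusted p = 0.0247), and without DSS + GAA replicate 1 it was -1.42 (limma adjusted p = 0.0320).

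Ccl8, a chemokine of tissue macrophages that draws monocytes and, in mice, acts through CCR8, did not follow Ccl2. It stood at 115, 200.1, 136 and 176 TPM in the DSS libraries and at 342, 257, 156 and 73.2 TPM in the DSS + GAA libraries. The DSS + GAA libraries spanned the whole range of the DSS libraries, with replicates 1 and 2 above it and replicate 5 below it. The log2 fold change was 0.22 ± 0.43 (limma adjusted p = 0.715, 95% interval -0.74 to 1.18). Without DSS + GAA replicate 1 its sign turned (-0.09, limma adjusted p = 0.864).

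Ccr2, the receptor of Ccl2 and Ccl7 on classical monocytes, stood at 23.6, 8.87, 27.6 and 22.5 TPM in the DSS libraries. In DSS + GAA it stood at 55.4, 33.04, 11.7 and 10.7 TPM. Replicates 1 and 2 of DSS + GAA lay above every DSS library, and replicates 4 and 5 lay below 3 of the DSS libraries. The log2 fold change was 0.20 ± 0.53 (limma adjusted p = 0.791, 95% interval -1.002 to 1.41), and its sign turned without DSS replicate 2 (-0.14) or DSS + GAA replicate 1 (-0.23). The authors' deposited table gives Ccr2 a log2 fold change of 0.43 with a false discovery rate of 0.0402.

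Markers of the cells that carry or make these proteins were set beside them. Over all tested genes 28.2% were called lower and 5.96% higher, the shares beside which each marker list count stands. Of 7 classical monocyte genes, 1 fell and 0 rose (5 fell without DSS + GAA replicate 1), and their summed level was 4101 to 5531 TPM in the DSS group and 4841 to 6422 TPM with GAA, most of it Plac8, which colon epithelium is also known to express. Ly6c2, the other leading gene of that list, stood at 176 ± 52.9 and 222 ± 118 TPM and did not pass. Of 14 macrophage genes, 4 fell and 0 rose, a lower share close to that of all tested genes. With the other scalings 2 fell, and 1 rose under quantile normalization. With a library left out 2 to 8 fell, the most without DSS + GAA replicate 1. The macrophage genes summed to 1238 to 1557 TPM in the DSS group and 724 to 2522 TPM with GAA. Lyz2, the leading gene of these sums, had means of 619 and 877 TPM and did not pass (limma adjusted p = 0.761). The median log2 fold change of the 14 macrophage genes was -0.64. No classical monocyte or macrophage gene was at 0 in a library. The macrophage sums of DSS + GAA were 2522 and 1618 TPM in replicates 1 and 2 and 772 and 724 TPM in replicates 4 and 5. Ccr2 was high and low in the same libraries. Every other cell marker list except epithelium also had higher sums in DSS + GAA replicates 1 and 2 than in 4 and 5, so this order is not particular to macrophage genes. In DSS, Ccr2 was lowest in replicate 2 (8.87 TPM), where the macrophage sum was 1473 TPM. Of other cells, 4 of 6 tested T cell genes rose and 5 of 7 endothelial genes fell (2 when scaled in any of the 3 other ways, and 1 to 6 with a library left out, the fewest without DSS replicate 1), while 0 of 6 smooth muscle genes and 0 of 4 B cell genes passed (limma). Of 7 tested dendritic cell genes 1 fell and 1 rose, but with each of the 3 other scalings 0 fell. Neither direction had a call (limma) on leaving out DSS replicate 1, 2 or 4, or replicate 2, 4 or 5 of DSS + GAA. Of 4 mast cell genes 1 rose (2 after median centring or quantile normalization, and 2 if DSS replicate 1 was omitted). The part of these cells in the values of Ccr2 and its ligands was not tested.

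Ccl3 and Ccl4, ligands made by activated macrophages, neutrophils and T cells, both fell. Ccl3 stood at 44.0, 66.9, 35.8 and 16.2 TPM in the DSS libraries and at 9.97, 7.87, 6.81 and 4.08 TPM in the DSS + GAA libraries. Ccl4 stood at 30.5, 39.8, 32.0 and 20.8 TPM in DSS and at 9.62, 6.94, 4.32 and 3.99 TPM in DSS + GAA. In both genes every DSS library lay above every DSS + GAA library. Ccl3 fell by 2.24 ± 0.40 on the log2 scale (limma adjusted p = 0.00639) and Ccl4 by 2.17 ± 0.28 (limma adjusted p = 0.00460). Both kept the call in all 18 alternative analyses.

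Ccl6 and Ccl9, rodent chemokines that act through CCR1, went opposite ways. Ccl9 stood at 91.5, 94.8, 78.5 and 42.4 TPM in DSS and at 43.3, 30.5, 14.6 and 15.8 TPM in DSS + GAA. The groups overlapped by a single pair of libraries, DSS replicate 5 (42.4 TPM) and DSS + GAA replicate 1 (43.3 TPM). Ccl9 fell by 1.60 ± 0.37 on the log2 scale (limma adjusted p = 0.0135). Ccl6 stood at 263, 310.2, 353 and 371 TPM in DSS and at 629, 526, 482 and 434 TPM in DSS + GAA. Every DSS + GAA library lay above every DSS library, and Ccl6 had the highest mean TPM of the 10 genes in both groups (324 ± 48.0 and 518 ± 83.4 TPM). It rose by 0.67 ± 0.16 on the log2 scale (limma adjusted p = 0.0145), or 0.92 relative to the median of all genes. Without DSS replicate 1 both genes missed the threshold (Ccl9 -1.49, limma adjusted p = 0.0505, and Ccl6 0.58, limma adjusted p = 0.0513).

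Ccr1, the receptor gene for Ccl3, Ccl6 and Ccl9, fell from 53.6 ± 8.91 to 23.3 ± 16.7 TPM. The difference was -1.43 ± 0.44 on the log2 scale (limma adjusted p = 0.0333), and it missed the threshold with the 3 other scalings (limma adjusted p = 0.0760 to 0.0960) and without any 1 of the 4 DSS libraries or of DSS + GAA replicates 4 and 5 (0.0530 to 0.0991). Its DSS + GAA values were 45.1, 27.4, 12.03 and 8.65 TPM, of which replicate 1 lay above the lowest DSS library (44.5 TPM). Neutrophils also carry CCR1, and of 12 neutrophil genes 9 fell and 0 rose, beside 28.2% and 5.96% of all tested genes. Their sums were 4617 to 11009 TPM in the DSS group and 1409 to 4389 TPM with GAA. Ly6g, the leading gene of these sums, had means of 3225 and 2238 TPM and did not pass (limma adjusted p = 0.195). S100a9, the next, had means of 2074 and 93.8 TPM and fell. The part of neutrophils in the fall of Ccr1, Ccl3 and Ccl4 was not tested.

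Ccl11, the eotaxin gene that fibroblasts and macrophages make, stood at 239, 265, 212 and 120.0 TPM in DSS and at 111, 66.0, 16.1 and 26.0 TPM in DSS + GAA. The groups did not overlap, though DSS replicate 5 and DSS + GAA replicate 1 lay close together. Ccl11 fell by 2.22 ± 0.54 on the log2 scale (limma adjusted p = 0.0154), and without DSS replicate 1 the fall of 2.14 missed the threshold (limma adjusted p = 0.0543). Of 10 fibroblast genes 4 fell and 0 rose, beside 28.2% and 5.96% of all tested genes. Those that fell numbered 3 under each of the 3 other scalings, 2 when DSS replicate 1 was left out and 7 when DSS + GAA replicate 1 was. The fibroblast sums were 1524 to 4537 TPM in the DSS group and 374 to 1338 TPM with GAA, which did not overlap. Dcn, the leading gene of these sums, had means of 1789 and 331 TPM and fell. Of the 10 fibroblast genes 6 did not pass (limma). The part of fibroblasts in the fall of Ccl11 was not tested. The eotaxin receptor gene Ccr3 was at or below 0.21 TPM in every library and was not tested. Of 7 listed eosinophil genes with values, 3 were tested. In the limma fit on TPM without further scaling 1 fell, and 0 fell under each of the 3 other scalings. The eosinophil peroxidase gene Epx was listed at 0 in 5 of the 8 libraries, and Siglecf was at 0.21 to 1.53 TPM.

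Ccl20, which epithelium over lymphoid follicles and inflamed epithelium makes, stood at 29.7, 35.6, 19.7 and 72.1 TPM in DSS and at 37.3, 28.5, 40.7 and 24.4 TPM in DSS + GAA. All DSS + GAA values lay inside the DSS range, and DSS replicate 5, the lowest DSS library for Ccl2, was the highest for Ccl20. The log2 fold change was -0.13 ± 0.35 (limma adjusted p = 0.799, 95% interval -0.91 to 0.65), and its sign turned under the 3 other scalings. Its receptor gene Ccr6 was below the filter, at 0.14 to 0.84 TPM over the 8 libraries. Of 5 tested genes of M cells and follicle epithelium 0 passed (limma). Without DSS + GAA replicate 1, 3 fell and 1 rose, without DSS replicate 5 1 fell, with array quality weights or the replicate block 2 fell, and with no filter or quantile normalization 1 rose.

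Within groups the libraries did not share 1 order. DSS replicate 2 was the highest and DSS replicate 5 the lowest DSS library for all 5 genes that fell, while DSS replicate 5 was the highest for Ccl6 and Ccl20. In DSS + GAA, replicate 1 was the highest for 9 of the 10 genes and replicate 5 the lowest for 8. The inducing cytokine list (11 of 12 in the table, all tested) had 7 genes fall and 1 rise, beside 28.2% and 5.96% of all tested genes. Il1b, whose protein induces Ccl2, fell from 262 ± 102 to 46.3 ± 23.0 TPM. Its DSS values of 301, 362, 264 and 121 TPM were also highest in replicate 2 and lowest in replicate 5. Tnf, another inducer, was at 26.4 ± 3.81 and 38.2 ± 15.7 TPM and did not pass. The part of these cytokines in the values of the 10 genes was not tested.

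A factor that scales a whole library cancels in the ratio of 2 of its genes, except for the pseudocount of 1 added to each. For 10 pairs the log2 ratio of TPM + 1 was compared between groups by exact permutation (two-sided, 70 assignments, smallest possible p 0.0286), adjusted over the 10 pairs. Ccl2 enters 7 of the pairs, so they are not independent. In 6 pairs the groups did not overlap and the adjusted p was 0.0476 (exact permutation). All 6 tie at the smallest possible p, and the adjusted p is under 0.05 only because of that tie. The pairs were chosen with earlier results of these data known, so passing adds little to the lack of overlap. Ccl2 dropped relative to Ccl7 by 1.37, relative to Ccl8 by 2.71, relative to Ccl6 by 3.16 and relative to Ccr2 by 2.69 on the log2 scale. Ccl8 gained 2.44 on Ccl11, and Ccl6 gained 2.27 on Ccl9. The Ccl2 to Ccl7 log2 ratio was -0.12 to 0.70 in the DSS libraries and -1.25 to -0.83 in the DSS + GAA libraries. Ccl2 was near or above Ccl7 in DSS and below it in every DSS + GAA library.

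The other 4 pairs did not pass. The Ccl3 to Ccl4 ratio differed by -0.07 (0.27 ± 0.47 in DSS and 0.20 ± 0.24 in DSS + GAA, SD, n = 4, exact permutation adjusted p = 0.8286). The Ccl2 to Ccl3 ratio differed by -0.25 (exact permutation adjusted p = 0.5; -0.13 with a pseudocount of 0.1 and -0.58 with 5, neither passing) and the Ccl2 to Ccl11 ratio by -0.27 (exact permutation adjusted p = 0.730). The Ccl2 to Ccl20 ratio differed by -2.36, with DSS replicate 5 (0.99) inside the range of DSS + GAA (-0.30 to 1.36), and gave an exact permutation adjusted p of 0.0816.

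**Figure D2:**
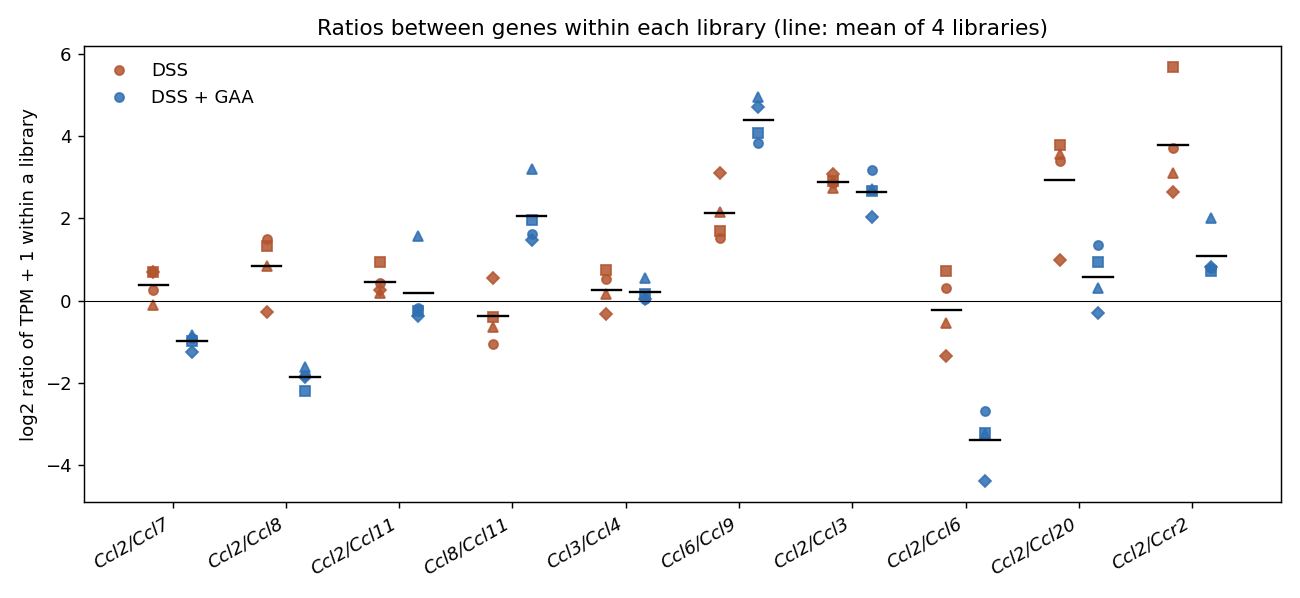
The log2 ratio of TPM + 1 of 2 genes within each library (vertical axis) for 10 gene pairs, with DSS libraries to the left and DSS + GAA libraries to the right of each tick and a line at the mean of 4. The groups separate for 6 pairs, among them Ccl2 to Ccl6 (-3.16) and Ccl6 to Ccl9 (2.27), and share their range for Ccl3 to Ccl4.

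The make-up of the ligand transcripts differed accordingly. The 9 ligand genes summed to 1415 ± 321 TPM in DSS and 1015 ± 348 TPM in DSS + GAA (SD, n = 4), and the sums overlapped (1051 to 1832 and 649 to 1463 TPM). Ccl6 made up 16.9% to 35.3% of that sum in the DSS libraries and 43.0% to 66.8% in the DSS + GAA libraries. Ccl2 made up 13.7% to 27.6% in DSS and 3.02% to 6.65% in DSS + GAA, and Ccl11 11.4% to 16.99% and 1.87% to 7.56%. Ccl8 made up 8.15% to 16.8% in DSS and 11.3% to 23.6% in DSS + GAA, which overlap. Ccl6 thus held the largest share in each DSS + GAA library, whereas in DSS replicates 1 and 2 Ccl2 held it. These shares are descriptions and were not tested.

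**Figure D3:**
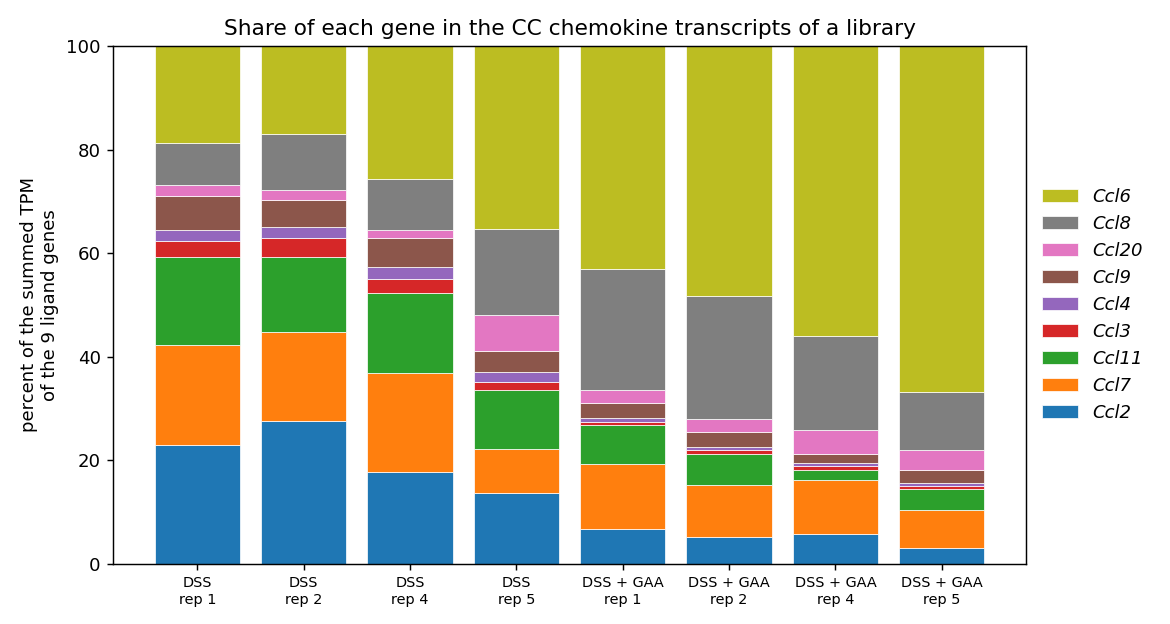
Share of each ligand gene in the summed TPM of the 9 ligand genes (vertical axis, percent) in each of the 8 libraries. The Ccl6 share is 16.9% to 35.3% in DSS and 43.0% to 66.8% in DSS + GAA, and the Ccl2 share is 13.7% to 27.6% and 3.02% to 6.65%.

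Of the 10 genes, 8 lie in 2 clusters on chromosome 11 (GRCm38, GENCODE vM21), while Ccl20 lies on chromosome 1 (83116766 to 83119167, plus strand) and Ccr2 on chromosome 9 (124101950 to 124113557, plus strand). The cluster from Ccl2 (82035571 to 82037453, plus strand) to Ccl8 (82115185 to 82116799, plus strand) spans 81.2 kb and holds 5 genes of the table. Going away from Ccl2, the log2 fold changes were -2.49 (Ccl2), -1.12 (Ccl7), -2.22 (Ccl11), -1.004 (Ccl12) and 0.22 (Ccl8). Ccl12, a further CCR2 ligand gene of mice, did not pass (29.2 ± 13.5 and 15.7 ± 11.2 TPM, limma adjusted p = 0.174). In this cluster the groups did not overlap in the ratios of Ccl2 to Ccl8 and of Ccl8 to Ccl11 given above.

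The cluster from Ccl5 to Ccl4 (83662584 to 83664683, plus strand) spans 138.9 kb and also holds 5 genes of the table. Their log2 fold changes were 0.26 (Ccl5, not passing), -1.60 (Ccl9), 0.67 (Ccl6), -2.24 (Ccl3) and -2.17 (Ccl4). Ccl9 (83572919 to 83578636) and Ccl6 (83587882 to 83593087) are next to each other on the minus strand, with start sites 48.1 and 62.6 kb from that of Ccl5, and differ in direction. Ccl3 (83647844 to 83649355, minus strand) and Ccl4 are neighbours on opposite strands with nearly the same fold change. The labels do not say whether libraries kept strand. By their whole spans, Ccl2 overlaps the opposite-strand gene Gm17268 and Ccl6 overlaps E230016K23Rik, while the other 8 genes overlap no annotated gene. Without strand, reads from shared bases could not be told apart, and whether exons overlap was not checked.

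**Figure D4:**
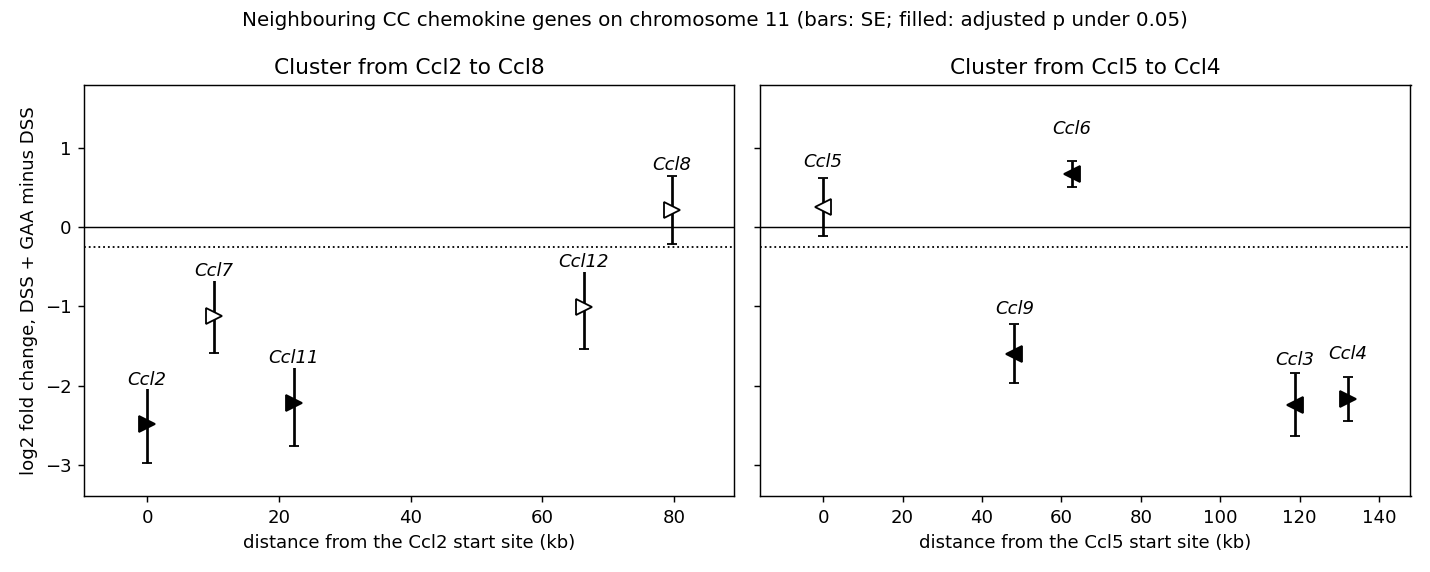
Log2 fold change with its SE (vertical axis) of the genes of both chromosome 11 clusters against distance from the Ccl2 or Ccl5 start site in kb, with markers pointing along the strand, filled where the adjusted p is under 0.05, and a dotted line at the median of all genes (-0.25). Ccl9 (-1.60) and Ccl6 (0.67) are adjacent and lie on opposite sides of 0.

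The 250 bases before the start sites are shown for a gene of each direction and their neighbours, since Ccl9 and Ccl6 are adjacent and differ, Ccl3 fell and Ccl8 did not pass. They are RefSeq sequences on GRCm38.p6, 5′ to 3′ on the gene's strand, with capitals on matches to the motifs searched on both strands: GGGANNTTCC (NF-kappa-B), TGANTCA (AP-1), TTCNNNGAA (STAT), AGGTCA (the core of ROR elements) and TATAAA.
Ccl9: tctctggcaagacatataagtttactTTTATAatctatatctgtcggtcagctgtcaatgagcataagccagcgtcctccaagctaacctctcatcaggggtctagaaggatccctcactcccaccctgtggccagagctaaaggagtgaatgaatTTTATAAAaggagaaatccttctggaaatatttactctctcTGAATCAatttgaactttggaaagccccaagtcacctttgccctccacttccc
Ccl6: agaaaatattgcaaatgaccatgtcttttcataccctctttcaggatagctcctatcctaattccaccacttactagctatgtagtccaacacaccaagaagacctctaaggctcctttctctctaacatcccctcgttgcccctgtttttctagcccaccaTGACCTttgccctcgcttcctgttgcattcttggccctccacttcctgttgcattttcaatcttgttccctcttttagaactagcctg
Ccl3: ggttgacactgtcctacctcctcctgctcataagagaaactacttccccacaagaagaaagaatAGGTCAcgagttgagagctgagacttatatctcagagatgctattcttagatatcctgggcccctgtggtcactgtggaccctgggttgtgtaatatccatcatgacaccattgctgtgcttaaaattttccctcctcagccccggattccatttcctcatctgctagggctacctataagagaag
Ccl8: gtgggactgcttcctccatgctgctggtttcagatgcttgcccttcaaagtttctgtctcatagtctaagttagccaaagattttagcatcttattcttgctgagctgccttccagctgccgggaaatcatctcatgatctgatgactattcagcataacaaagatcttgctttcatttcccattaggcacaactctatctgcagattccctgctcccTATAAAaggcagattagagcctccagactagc

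These windows are chr11:83578637-83578886 for Ccl9, chr11:83593088-83593337 for Ccl6, chr11:83649379-83649628 for Ccl3 and chr11:82114935-82115184 for Ccl8, the last on the plus strand and the others on the minus strand. Promoters were matched for 6 of the 10 genes, with Ccl20 and Ccr2 as the other matched ones; Ccl2, Ccl4, Ccl7 and Ccl11 were not matched. GGGANNTTCC and TTCNNNGAA matched in 0 of the 6 windows, beside 1.21% and 7.02% of all 32851 promoter windows of that length. AGGTCA matched in the windows of Ccl3, Ccl6 and Ccl20 (14.0% of all), TGANTCA in that of Ccl9 (6.75% of all), and TATAAA in those of Ccl8 and Ccl9 (12.4% of all; 2 of the 3 matches in Ccl9 overlap each other). The Ccl9 and Ccl6 windows share GCCCTCCACTTCC, a run of 13 bases and the longest between any of the 6 windows. A match of letters is a description, and so is the lack of one. Only the letters given were searched, so other forms of these sites were not counted.

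Of the 25 other listed genes for CC ligands and receptors 23 were in the table, and 16 were tested. Of these 16 genes 3 fell and 1 rose, beside 28.2% lower and 5.96% higher over all tested genes, so the calls do not set the 16 apart. The 3 that fell were Ccr1, Ackr1, a venule receptor that takes up chemokines without signalling, and Ccr7. Ccl28, an epithelial mucosal chemokine gene, rose. Ackr1 kept its call under the 3 other scalings and Ccr7 did not (limma adjusted p = 0.0848 to 0.126). Ccl28 missed the threshold whenever any library except DSS + GAA replicate 1 was left out (limma adjusted p = 0.0544 to 0.0839). Their median log2 fold change was -0.28, close to the -0.25 of all tested genes. Among the genes that share a receptor or ligand with the 10, Ccl5 (42.3 ± 14.6 and 53.2 ± 25.9 TPM), the decoy receptor gene Ackr2 (3.45 ± 1.05 and 1.92 ± 1.47 TPM) and Ccrl2 (20.1 ± 8.11 and 16.9 ± 7.07 TPM) did not pass. The eotaxin-2 gene Ccl24 was at most 0.38 TPM and was not tested. Under trimmed mean scaling, quantile normalization and median centring 1 of the 16 was lower, and 2, 3 and 2 were higher.

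**Figure D5:**
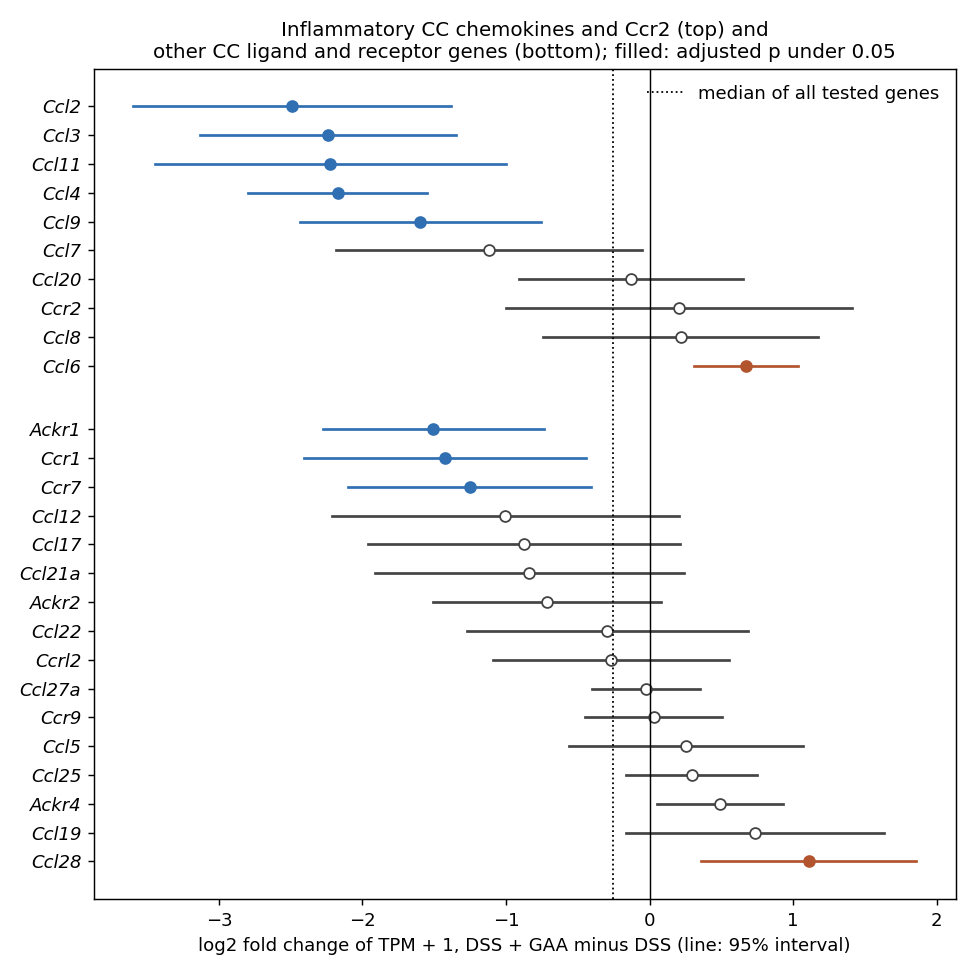
Log2 fold change on TPM + 1 with its 95% interval (horizontal axis) of the 10 genes (top) and of the 16 tested genes for other CC ligands and receptors (bottom), filled where the adjusted p is under 0.05, with a dotted line at the median of all tested genes. The 5 lower genes of the upper block lie between -2.49 and -1.60, and Ccl6 (0.67) is its only higher call.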

How the data were processed

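RNA was sequenced as poly(A)-selected, paired-end libraries of mouse colon, 4 per group, per the labels' protocols. The authors deposited TPM values per gene and library, with their own log2 fold changes, p-values and false discovery rates for DSS + GAA over DSS; no source used here states that test. The submitters' processing notes name HISAT2 and Bowtie2 as well as Trimmomatic, SAMtools, GATK, Subread, featureCounts and edgeR, on mm10, without roles. Depth is unknown, and no detection floor was given.

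Genes at 1 TPM or more in at least 4 of 8 libraries (14217; 4045 left out) were tested on log2(TPM + 1) with limma 3.58.1 in R 4.3.3 (variance trend, robust empirical Bayes, group as sole term, two-sided). Trimmed mean factors were unweighted. Pair ratios used exact permutation in SciPy 1.17.1. The scripts were tested on simulated data. Alternatives changed the pseudocount, filter, scaling, empirical Bayes settings, weights and replicate block, and left out each library. The text names all 10 genes, those of the CC family that share a receptor or ligand with them, and at most the 2 most abundant genes of a marker list; other genes were named after their values were seen. The 10 genes, pairs and lists were chosen with earlier results of these data known. One listed gene is not reported here.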

Additional observations from a re-analysis of the deposited data

How the results depend on the processing

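Of the 10 genes, 5 were lower and 1 higher in the fit reported, and 3 to 6 were lower and 0 to 1 higher when each library was left out, the fewest without DSS replicate 1. Ccl2, Ccl3 and Ccl4 were called lower in all 18 alternatives. Ccl7 also passed with array quality weights (-1.30) and with the replicate block (-1.12, limma adjusted p = 0.0100), and 6 genes were lower in each. The block changed no other call among the 10. Same-numbered libraries correlated at 0.18, -0.11, 0.15 and -0.03 in their deviations from the group means, over all tested genes. Such correlations cannot exclude a shared batch, and the labels do not state one. With the block the standard error was 0.25 for Ccl2 (0.49 without it), 0.21 for Ccl3 (0.40) and 0.20 for Ccl7 (0.47). It was larger with the block for Ccl6 (0.20 and 0.16) and Ccl20 (0.38 and 0.35). Signs turned for genes that did not pass. For Ccl20 this happened with trimmed mean scaling (0.14), after quantile normalization (0.0744) or median centring (0.18), and with array quality weights (0.0787); with a library left out its log2 fold change ran from -0.39 to 0.21. For Ccr2 it happened with array quality weights (-0.0665), and its range with a library left out was -0.23 to 0.53. For Ccl8 that range was -0.0940 to 0.64.

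Of the other CC ligand and receptor genes, 3 were lower and 1 higher. Lower ones numbered 1 under each of the 3 other scalings, 5 with array quality weights and 1 to 7 with a library left out. Higher ones numbered 2 with no filter, 2 under trimmed mean scaling and median centring, 3 under quantile normalization and 0 to 1 with a library left out. Over all tested genes, 4006 were lower and 847 higher in the limma fit on TPM without further scaling (82.5% of calls lower). They were 1648 and 1890 under trimmed mean scaling (46.6%), 1601 and 1677 under quantile normalization (48.8%), and 1308 and 2165 under median centring (37.7%). With a library left out lower genes numbered 1676 to 4435 and higher genes 361 to 1277. The 6 pair ratios that passed numbered 6 with pseudocounts of 0.1 and 5 and 0 to 0 with a library left out, where the exact permutation test cannot give a p below 0.0571.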
